A study of Mus musculus with 20 samples.

Results

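Interferon-responsive genes were followed in the hearts of ageing male mice given vitamin E. The 8 genes were Irf1, Irf7, Isg15, Usp18, Ifit1, Ifit2, Ifit3 and Bst2, and their probe sets were taken wherever the array's annotation listed one of these symbols alone. This gave 8 of the 12488 probe sets, which measure 7 of the 8 genes. Irf7 had 2 probe sets, and Bst2 was listed under no single-symbol probe set and is not analysed here. The 20 animals gave 1 heart and 1 oligonucleotide array each, in 4 groups of 5. The first group ate a diet with 500 mg/kg of alpha-tocopherol plus 500 mg/kg of gamma-tocopherol (mixed tocopherols) and the second a diet with 1000 mg/kg alpha-tocopherol. The other groups were old controls and young controls on the control diet. Animals were 30 months of age except for the young controls, at 5 months, and supplements began at 15 months. All were singly housed, pathogen-free B6/C3H hybrids, labelled F1 except for old controls 1 and 4. The supplements differ both in the alpha-tocopherol dose and in the added gamma-tocopherol, and these cannot be told apart.

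Interferons are cytokines, and those of type I are released when a cell senses foreign or misplaced nucleic acid. Interferon receptors act through Janus kinases. Type I interferon signals mainly to the interferon-stimulated response element (ISRE) of its target genes, and interferon gamma mainly to the gamma-activated site (GAS). The genes switched on in this way restrict viruses, and some of them feed back on the pathway by raising or damping the interferon signal.

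The start-site sequences show which of these elements the genes carry. RefSeq windows of assembly GRCm38.p6, from 250 bases before to 50 bases after a start site, were matched for 7 of the 8 genes (9 windows, none for Usp18). The ISRE core was searched as GAAANNGAAA and the GAS core as TTCNNNGAA, on both strands. The ISRE core occurred in 1131 of 32851 windows (3.44%) and the GAS core in 2726 (8.30%). In 4 genes, Isg15, Ifit1, Ifit3 and Bst2, the window held the ISRE core. The first 3 of these windows are printed because they carry that core and were measured, and that of Irf1 because it holds the GAS core. Each is written 5′ to 3′ along its gene, with the matched letters in capitals.
Isg15, ISRE core, chr4:156200769-156201068, minus strand: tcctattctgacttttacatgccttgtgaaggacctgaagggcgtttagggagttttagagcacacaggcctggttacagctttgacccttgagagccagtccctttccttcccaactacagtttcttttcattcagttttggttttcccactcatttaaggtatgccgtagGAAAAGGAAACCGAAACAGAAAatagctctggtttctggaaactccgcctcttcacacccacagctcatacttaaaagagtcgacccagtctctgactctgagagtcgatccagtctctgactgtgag
Ifit1, ISRE core, chr19:34640639-34640938, plus strand: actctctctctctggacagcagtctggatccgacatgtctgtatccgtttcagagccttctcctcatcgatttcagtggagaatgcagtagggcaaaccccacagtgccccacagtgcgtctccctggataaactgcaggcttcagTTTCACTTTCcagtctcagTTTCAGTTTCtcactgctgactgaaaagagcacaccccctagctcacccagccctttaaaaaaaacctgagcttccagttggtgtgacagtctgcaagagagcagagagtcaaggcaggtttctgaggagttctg
Ifit3, ISRE core, chr19:34583279-34583578, plus strand: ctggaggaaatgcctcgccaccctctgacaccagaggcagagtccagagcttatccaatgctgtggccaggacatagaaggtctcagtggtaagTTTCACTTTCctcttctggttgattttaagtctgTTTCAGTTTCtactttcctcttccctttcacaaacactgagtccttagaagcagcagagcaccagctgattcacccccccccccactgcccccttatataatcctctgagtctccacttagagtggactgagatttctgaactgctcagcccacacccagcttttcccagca
Irf1, GAS core, chr11:53769764-53770063, plus strand: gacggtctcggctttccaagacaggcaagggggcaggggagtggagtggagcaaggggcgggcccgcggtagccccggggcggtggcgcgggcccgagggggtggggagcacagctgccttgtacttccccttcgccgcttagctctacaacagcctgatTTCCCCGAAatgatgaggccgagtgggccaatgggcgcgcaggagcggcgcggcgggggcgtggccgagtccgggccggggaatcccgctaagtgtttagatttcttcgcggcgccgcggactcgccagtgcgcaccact
In Isg15 the capitals are 1 run in which 3 matches overlap, 78, 72 and 66 bases before the start site. Ifit1 held separate matches 104 and 85 bases before its start, and Ifit3 156 and 122 bases before, in both genes on the strand opposite to the gene. The GAS core of Irf1 lay 90 bases before the start in 1 of its 2 windows, and 1 of the 2 Ifit2 windows held a GAS core 241 bases before it. Bst2 also held a GAS core, 136 bases before its start and overlapping an ISRE match. The Irf7 window held neither set of letters. A match of letters describes the sequence and is not evidence of binding in these hearts.

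Levels are the deposited linear intensities, and changes are differences of log2(intensity + 58) ± standard error, which understate the change of dim probe sets. In all, 5 probe sets of 4 genes (Irf1, both of Irf7, Isg15 and Ifit3) passed a filter that left out the dimmest 40% of probe sets. Differences were tested with limma, and adjusted p-values follow Benjamini and Hochberg over 7453 probe sets. The probe sets of Usp18, Ifit1 and Ifit2 did not pass, and their values come from the same fit without the filter. The number of arrays limits the precision, with a median standard error of 0.179 over all tested probe sets. All 7 cardiomyocyte markers on the array passed the filter, and their summed intensity was 392967 to 624927 across the 20 hearts. Young control 3 and old control 3 stood apart. Old control 3 had a Gapdh probe set signal 1.21 log2 higher at the 3′ than at the 5′ end, a measure of RNA integrity that was -0.173 to 0.188 in the other 19 hearts. The same measure for actin was 0.228 in old control 3, inside the -0.070 to 0.290 of the other 19 hearts. Young control 3 had the highest level of 9 of 10 T cell markers on the array, which summed to 37151 there and to 1348 to 2739 in the other 19 hearts, with no marker listed at 0. In whole-organ RNA, fewer cells of a type and less RNA per cell cannot be told apart.

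The interferon-responsive genes showed 1 change that passed the test, a higher level of Irf1 with alpha-tocopherol, in a comparison in which 21.7% of all tested probe sets passed. By limma 0 of their 5 tested probe sets passed with mixed tocopherols, where 6.43% of all did, between the supplements (0.564% of all) or with age (4.94% of all). At an unadjusted p under 0.05 the counts were 0 of 5 with mixed tocopherols (22.9% of all tested probe sets), 2 with alpha-tocopherol (35.5% of all), 0 between the supplements (15.9% of all) and 1 with age (18.01% of all). With age all 8 probe sets had a positive difference, but old and young animals overlapped for each of them. In none of the 32 comparisons of a probe set between groups did the groups separate. The share of all probe sets that separate was not counted.

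**Figure D1:**
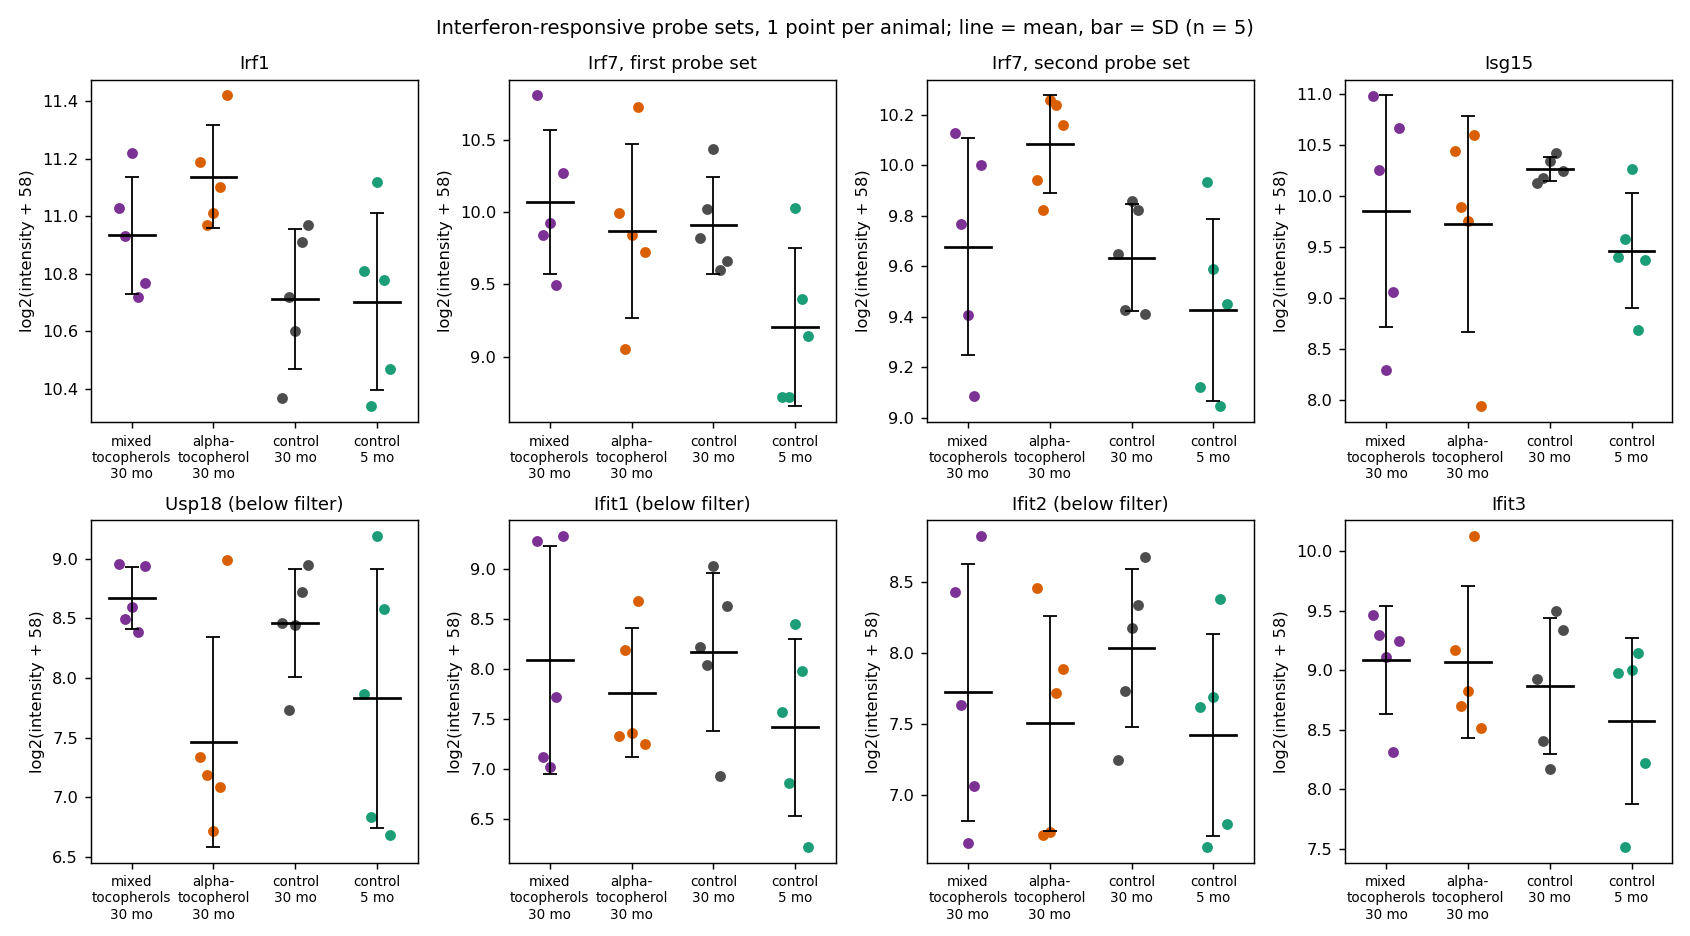
Each panel plots the log2(intensity + 58) of 1 interferon-responsive probe set, with 1 point per animal, a line at the group mean and a bar of 1 SD (n = 5). The groups overlap in every panel; the old control points of Isg15 lie close together and those of the supplemented groups are spread.

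IRF1 is a transcription factor induced mainly by interferon gamma and an activator of antigen presentation and antiviral genes. Irf1 had intensities of 2027, 1889, 2328, 1629.7 and 1692 in the mixed-tocopherol hearts and 2281, 1953, 2003, 2144 and 2684 in the alpha-tocopherol hearts. They were 1269, 1634, 1498, 1866 and 1954 in old controls, and 1734, 1239, 2171, 1704 and 1356.5 in young controls. The alpha-tocopherol hearts formed the upper end, and 4 of them exceeded every old control while animal 2 fell just short of the highest one. Irf1 rose with alpha-tocopherol by 0.42 ± 0.15 over old controls (adjusted p = 0.0475). With mixed tocopherols the difference from old controls was 0.22 ± 0.15 (adjusted p = 0.414), and with age it was 0.01 ± 0.15 (adjusted p = 0.980). The mixed-tocopherol mean was 0.21 below the alpha-tocopherol mean, a difference of -0.21 ± 0.15 (adjusted p = 0.520), so that a difference of the supplements in Irf1 was not established.

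The Irf1 call lay close to the threshold. It was kept in 8 of 20 fits that left out 1 animal each, where the difference stayed between 0.34 and 0.49. It was lost without alpha-tocopherol animal 1, 3, 4 or 5 (adjusted p = 0.0807, 0.0578, 0.0643 and 0.115). The same held without old control 1, 2 or 3 (0.129, 0.0745 and 0.0870). Leaving out mixed-tocopherol animal 1, 2 or 5 gave adjusted p-values of 0.0526, 0.0540 and 0.0516, and leaving out young control 1 or 4 gave 0.0534 and 0.0539, through the shared estimate of spread. Without both hearts labelled hybrid without F1 the difference was 0.37 ± 0.17 (adjusted p = 0.150). The alpha-tocopherol arrays also had higher hybridization controls (mean log2 of 13.6, against 12.7 in old controls) and higher 18S ribosomal RNA (12.4 against 10.7 in old controls). For both, the exact two-sided permutation p was 0.00794, the smallest that 5 against 5 allows (adjusted p = 0.0318). With the hybridization controls as a covariate the Irf1 difference was 0.47 ± 0.27 (adjusted p = 0.366), and with 18S it was 0.48 ± 0.24 (adjusted p = 0.299). The size of the difference was therefore similar and its error larger in these fits. Hybridization controls were 13.3 to 13.77 on alpha-tocopherol arrays and 12.52 to 12.89 on old control arrays. For 18S the ranges were 12.19 to 12.72 and 10.08 to 11.19. Neither measure overlapped between these groups, so supplement and array measures cannot be told apart in these fits. Markers of several cell types also moved with alpha-tocopherol, in both directions, where 21.7% of all tested probe sets passed. Of 9 tested myeloid markers 4 fell and 0 rose, and of 7 fibroblast markers 4 fell and 1 rose. Prf1, the 1 tested of 5 natural killer cell markers on the array, rose by 1.38 ± 0.43 (adjusted p = 0.0245). The natural killer markers summed to 1393 to 1771 with alpha-tocopherol, against 608 to 1295 in old controls. Ms4a1 was the 1 of 3 tested B cell markers that rose (0.79 ± 0.21, adjusted p = 0.00901). Cd79a (-0.37 ± 0.29) and Blnk (-0.22 ± 0.30) had negative differences that did not pass (adjusted p = 0.366 and 0.635). The 5 B cell markers on the array summed to 2802.5 to 5974, against 3297 to 4195 in old controls. Of 7 cardiomyocyte markers 3 rose, with sums of 537393 to 624927 with alpha-tocopherol and 462451 to 534063 in old controls. Ryr2 and Nppa, of the same list, had negative differences that did not pass (-0.27 and -0.31). The part of these cell types in the Irf1 value was not tested.

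IRF7 is the interferon regulatory factor that amplifies type I interferon production, and it is itself induced by interferon. Its first probe set read 1732, 861, 915, 664 and 1179 in mixed-tocopherol hearts and 961, 472.5, 861, 1646 and 788 in alpha-tocopherol hearts. It read 848, 977, 1327, 718 and 753.5 in old controls, and 363, 363.5, 987, 618.5 and 507 in young controls. The old controls lay above 4 of the 5 young controls, and young control 3 stood among the old animals. The age difference was 0.71 ± 0.29, with an unadjusted p of 0.0257 that did not hold after adjustment (adjusted p = 0.195). Over the fits that left out 1 animal each it was 0.57 to 0.91 (adjusted p = 0.0745 to 0.386). The highest value, 0.91 ± 0.29, came without young control 3 (adjusted p = 0.0745). With array quality weights the difference passed, at 0.77 ± 0.24 (adjusted p = 0.0485). Its supplement differences from old controls were 0.16 ± 0.29 with mixed tocopherols and -0.04 ± 0.29 with alpha-tocopherol (adjusted p = 0.789 and 0.943).

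The second Irf7 probe set carries a name suffix that marks probes shared within a sequence family, so its identity is less certain. It read 1064, 814, 621, 485 and 968 in mixed-tocopherol hearts and 927, 848, 1170.5, 1147 and 1084.5 in alpha-tocopherol hearts. It read 745, 630.1, 871, 847 and 624 in old controls, and 499.5, 919, 711, 470.1 and 641 in young controls. Here 4 of 5 alpha-tocopherol hearts exceeded every old control. The difference was 0.45 ± 0.21 at an unadjusted p of 0.0399 (adjusted p = 0.120), and with 18S as a covariate it was -0.11. The Irf7 probe sets thus differed in which comparison showed the larger value, with age differences of 0.71 and 0.21. Their deviations from the group means correlated at r = 0.44 over the 20 arrays (within-group permutation p = 0.0804, adjusted p = 0.205). Spearman's rho was 0.41 (permutation p = 0.105), and r was 0.42 without the 2 arrays farthest from the median of the first probe set.

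ISG15 is a ubiquitin-like protein that is conjugated to other proteins after interferon exposure. Isg15 read 1962, 1167, 256.5, 477 and 1570.4 in mixed-tocopherol hearts and 1335, 893, 809, 1493 and 187 in alpha-tocopherol hearts. It read 1065, 1104, 1242, 1309.8 and 1163 in old controls, and 621, 709, 1177.5, 355 and 606 in young controls. Old controls clustered closely, above 4 of the 5 young controls, while both supplemented groups held hearts above and below the whole old control range. On the log2 scale the SD was 1.13 with mixed tocopherols and 1.06 with alpha-tocopherol, against 0.116 in old controls and 0.565 in young controls; the difference of spread was not tested. The age difference was 0.80 ± 0.46 (adjusted p = 0.388). Over the fits that left out 1 animal each it was 0.61 to 1.00 (adjusted p = 0.269 to 0.566). The highest value, 1.00 ± 0.48, came without young control 3 (adjusted p = 0.269). The differences from old controls were -0.41 ± 0.46 with mixed tocopherols and -0.54 ± 0.46 with alpha-tocopherol (adjusted p = 0.640 and 0.418). Between the supplements the Isg15 difference was 0.13 ± 0.46 (adjusted p = 0.929). Myeloid markers also reached lower levels in both supplemented groups. Their sum over 12 markers was 18936 to 36120 with mixed tocopherols and 21266 to 34839 with alpha-tocopherol, against 32863 to 38988 in old controls. Of 9 tested myeloid markers, 1 fell with mixed tocopherols, where 6.43% of all tested probe sets passed, and 4 with alpha-tocopherol, where 21.7% did. Fibroblast markers moved as well, with 3 of 7 lower and 1 higher with mixed tocopherols, and 4 lower and 1 higher with alpha-tocopherol. They summed to 49411 to 77169 with mixed tocopherols and 54007 to 83382 with alpha-tocopherol, against 64837 to 72672 in old controls. The part of these markers in the Isg15 values was not tested.

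USP18 removes ISG15 from its targets and damps type I receptor signalling. Usp18 read 439, 304, 329, 276 and 431 in mixed-tocopherol hearts and 104, 87.8, 47.6, 78.0 and 449.8 in alpha-tocopherol hearts. It read 294, 155, 289, 364 and 436 in old controls, and 175, 56.5, 526, 325 and 44.9 in young controls. Alpha-tocopherol animals 1 to 4 were below every mixed-tocopherol and old control heart, and animal 5 was above them all. Without the filter, the alpha-tocopherol difference from old controls was -0.995 ± 0.44, at an unadjusted p of 0.0344 (adjusted p = 0.138). Leaving out animal 5 gave -1.38 ± 0.41 (adjusted p = 0.0318), so this 1 heart decided whether the value passed. Mixed tocopherols exceeded alpha-tocopherol by 1.21 ± 0.44 (unadjusted p = 0.0120, adjusted p = 0.238). The differences were 0.21 ± 0.44 for mixed tocopherols over old controls and 0.63 ± 0.44 for age (adjusted p = 0.847 and 0.636). The filter's threshold was an intensity of 362, which 4 of the 5 alpha-tocopherol readings did not reach. The median reading was below it in every group: 329 with mixed tocopherols, 87.8 with alpha-tocopherol, 294 in old and 175 in young controls.

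The IFIT proteins bind foreign RNA and block its translation, and their genes lie together on chromosome 19. Ifit1 read 565.5, 80.8, 71.9, 153 and 586 in mixed-tocopherol hearts and 103, 235, 107, 354 and 94.7 in alpha-tocopherol hearts. It read 239, 204.5, 466.5, 64.0 and 337 in old controls, and 132, 58.2, 293, 194 and 16.6 in young controls. It had a wide range, with the highest heart 35.3 times the lowest and both extremes of the mixed-tocopherol group enclosing most other animals. Ifit2 read 287, 140.1, 43.2, 75.3 and 395 in mixed-tocopherol hearts and 293.5, 47.0, 48.6, 153 and 179 in alpha-tocopherol hearts. It read 93.2, 154, 231, 265 and 351 in old controls, and 138, 41.0, 148, 274 and 53.0 in young controls. All groups of Ifit2 overlapped, with the highest value in mixed-tocopherol animal 5 and the lowest in young control 2. The age differences without the filter were 0.75 ± 0.51 for Ifit1 and 0.61 ± 0.44 for Ifit2 (adjusted p = 0.616 and 0.647). With mixed tocopherols over old controls they were -0.07 ± 0.51 for Ifit1 and -0.31 ± 0.44 for Ifit2 (adjusted p = 0.961 and 0.766). With alpha-tocopherol over old controls they were -0.40 ± 0.51 for Ifit1 and -0.53 ± 0.44 for Ifit2 (adjusted p = 0.635 and 0.447).

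Ifit3 has a near-identical copy, Ifit3b, so its probe set may read both. Ifit3 read 651, 572, 495, 260.2 and 551 in mixed-tocopherol hearts and 519.5, 358.5, 397, 1064.5 and 308 in alpha-tocopherol hearts. It read 429, 282, 231, 667 and 588 in old controls, and 447, 125, 457, 509.7 and 240.4 in young controls. All groups overlapped, with the highest value in alpha-tocopherol animal 4 and the lowest in young control 2. Its differences were 0.22 ± 0.36 with mixed tocopherols, 0.20 ± 0.36 with alpha-tocopherol and 0.30 ± 0.36 with age (adjusted p = 0.765, 0.727 and 0.751).

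Medians were read against all probe sets tested. The median difference with age was 0.30 over these 5 and 0.62 over all 8, beside 0.01 over all tested probe sets, of which 52.4% were positive. With alpha-tocopherol the 1 call of 5, Irf1, was a share near that of the array as a whole. The median there was 0.20 over the 5 and -0.22 over the 8, with negative values for Usp18, Ifit1, Ifit2, Isg15 and the first Irf7 probe set. With mixed tocopherols the median was 0.16 over the 5 and 0.10 over the 8, and between the supplements it was 0.02 and 0.16. The comparisons with old controls share those 5 animals.

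**Figure D2:**
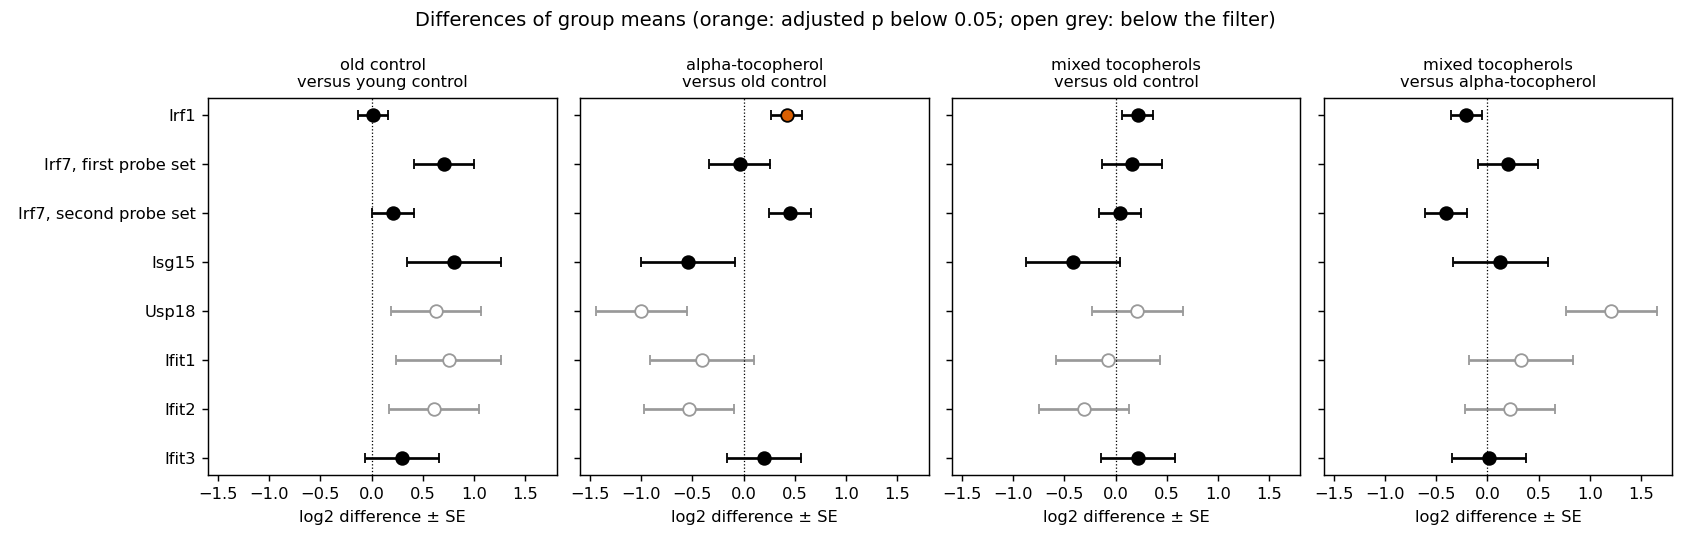
Log2 differences of group means with their standard errors are shown for the 8 probe sets in the 4 comparisons. The filled orange point, Irf1 with alpha-tocopherol over old controls at 0.42, has an adjusted p below 0.05, and open grey points are below the filter.

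Animals of 1 group differed widely in several of these genes. The SD within groups was 0.884 for Ifit1 and 0.829 for Isg15 on the log2 scale, larger than in 96.8% and 98.1% of probe sets of like mean (within 0.25 log2). Those of Irf1 (0.238) and of the second Irf7 probe set (0.315) lay below the medians for their level, 0.251 and 0.358. Deviations from the group mean went together in part: 23 of 28 pairs of probe sets had a positive r over the 20 arrays, with a median of 0.37. By either measure 0 of the 28 passed after Benjamini-Hochberg adjustment, and 4 had an unadjusted p under 0.05 for r. The highest pair was Irf1 with Usp18 (r = 0.72, within-group permutation p = 0.00186, adjusted p = 0.0521). Spearman's rho was 0.68 (permutation p = 0.00476, adjusted p = 0.0666). Without the 2 arrays farthest from the median of Irf1, r was 0.58. The next were 2 pairs of like r. Ifit2 with Usp18 had r = 0.58 (permutation p = 0.00855, adjusted p = 0.120) and rho = 0.65 (permutation p = 0.00305, adjusted p = 0.0666), and r was 0.56 without the 2 arrays farthest from the median of Ifit2. The other was Ifit1 with the first Irf7 probe set (r = 0.58, permutation p = 0.0141, adjusted p = 0.131). Its rho was 0.56 (permutation p = 0.0229, adjusted p = 0.128), and r was 0.51 without the 2 arrays farthest from the median of Ifit1.

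Some hearts deviated in 1 direction across most of these probe sets. Mixed-tocopherol animal 1 and young control 3 were above their group means in 8 of 8 probe sets, and mixed-tocopherol animal 5 in 7. Mixed-tocopherol animal 4 was below its group mean in 8 of 8. No alpha-tocopherol or old control heart was above its mean in more than 6, the count of alpha-tocopherol animal 4 and old control 4. Young control 3 is the heart with the high T cell markers, and the part of these in its values was not tested.

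**Figure D3:**
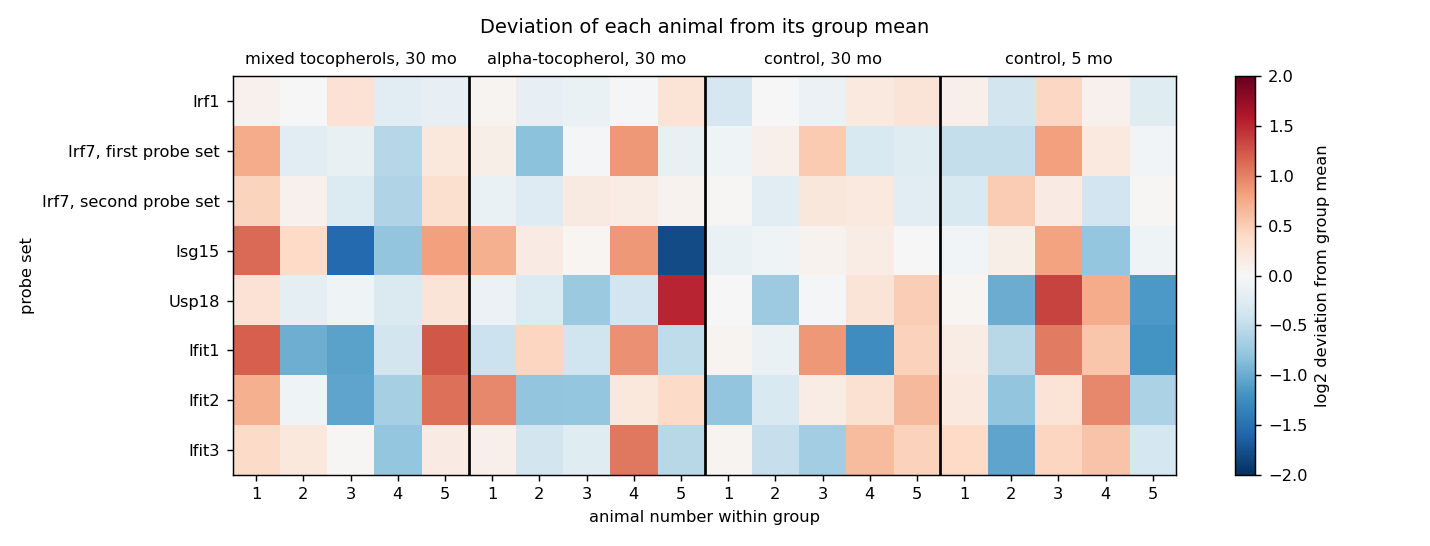
Colours give the log2 deviation of each animal from the mean of its group for the 8 probe sets, red above and blue below. Mixed-tocopherol animals 1 and 5 and young control 3 are mostly red, and mixed-tocopherol animal 4 is blue in every row.

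The genes that varied most like these were ranked by Pearson correlation, over the 20 arrays after removal of group means, with the average of Irf1, Irf7, Isg15 and Ifit3. Among 5659 genes Uba7 came first (r = 0.83), which encodes the E1 enzyme that activates ISG15 for conjugation. It was followed by Inpp5b (0.79), an inositol phosphatase, Nfatc1 (0.77), a calcineurin-dependent transcription factor, and Cdan1 (0.74). Gimap4 (0.73), a GTPase of lymphocytes, and Cdc42se1 (0.72) came next. Without young control 3, a setting chosen after seeing the data, Uba7 remained at rank 1 (r = 0.76), while Gimap4 moved to rank 46 (r = 0.61) and Cdc42se1 to rank 47 (r = 0.61). Among 49 tested genes of listed interferon pathway roles, 8 were in the top 1% of the ranking (57 genes), and 9 without young control 3. They included Irf5 (r = 0.71), Lgals3bp (0.71), Trim25 (0.70), Ifi27l2a (0.70), Ly6e (0.69), Irf9 (0.65) and Gbp2 (0.63). Of the 49, 39 had a positive r, beside 46.1% of all genes, with a median of 0.26 beside -0.03 over all genes. Without young control 3 there were 36, beside 49.7% of all genes, and the median was 0.24 beside -0.0016. All probe sets of an array share its labelling and hybridization, so these values describe likeness in these 20 hearts.

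The other genes of the pathway were taken from lists of 116 symbols by role, of which 74 were on the array and 49 were tested. With age 0 of 49 passed by limma, and 6 had an unadjusted p under 0.05, of which 3 were higher and 3 lower, beside 18.01% of all tested probe sets. The 6 interferon-inducible GTPases, which act on the vacuoles of intracellular pathogens, had positive differences with a median of 0.50. Of these 6, Gbp3 came closest, at 0.80 ± 0.25 (adjusted p = 0.0694). It read 1274 to 1665 in old controls against 672 to 1122 in young controls, groups that did not overlap. Among genes of other roles, Ifi27 came closer, at 0.51 ± 0.16 (adjusted p = 0.0578), also without overlap. Tyk2 separated in the other direction, at -0.92 ± 0.37 (adjusted p = 0.1735). The share of all probe sets that separated was not counted. With mixed tocopherols 0 of 49 rose and 2 fell, where 6.43% of all tested probe sets passed. With alpha-tocopherol 1 rose and 3 fell, where 21.7% of all passed, and between the supplements 0 passed by limma. At an unadjusted p under 0.05 there were 3 higher and 3 lower of 49 with mixed tocopherols (22.9% of all), 4 higher and 6 lower with alpha-tocopherol (35.5% of all), and 4 between the supplements (15.9% of all).

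Of the ligands and sensors, 2 of 6 tested genes passed, both with alpha-tocopherol, the comparison in which 21.7% of all probe sets passed. The probe set annotated Ifnab, which carries the family suffix and may read several interferon alpha genes, rose by 0.57 ± 0.13 (adjusted p = 0.00408). It read 1069 to 1365 with alpha-tocopherol (median 1174), against 651 to 956 in old controls (median 737), and the groups did not overlap. How large a share of all probe sets separated there was not counted. With alpha-tocopherol Ifna5 (0.50 ± 0.20) and Ifna9 (0.02 ± 0.43), which carry the same suffix, did not pass (adjusted p = 0.0751 and 0.978). Tbk1, the kinase that activates IRF3, fell by 0.58 ± 0.16 (adjusted p = 0.0134), to 476.5 to 984 with alpha-tocopherol against 902 to 1270.3 in old controls. These groups overlapped. Of the 5 receptor subunits and 4 Janus kinase and STAT complex genes tested, 0 passed in any comparison by limma. At an unadjusted p under 0.05 there was 1 receptor gene with alpha-tocopherol, 1 between the supplements and 1 kinase-complex gene with age.

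Among 3 tested interferon regulatory factors, 11 antiviral effectors and 9 other induced genes, 2 passed with mixed tocopherols (6.43% of all probe sets) and 2 with alpha-tocopherol (21.7% of all). Irf5, which works in Toll-like receptor signalling of myeloid cells, fell by 0.47 ± 0.14 with mixed tocopherols (adjusted p = 0.0483). It read 750.1 to 904 there, against 1042 to 1413 in old controls, with no overlap. Trim25, the ubiquitin ligase that activates the RNA sensor RIG-I, fell by 0.52 ± 0.17 with alpha-tocopherol (adjusted p = 0.0366), to 881 to 1166 against 1285 to 1869.7 in old controls. Ifi27l2a, an interferon-induced gene for a small membrane protein, fell with both supplements. It read 722 to 1022 with mixed tocopherols and 546 to 758 with alpha-tocopherol, against 1039 to 1426 in old controls, with no overlap in either case. How large a share of all probe sets separated in these comparisons was not counted. The differences were -0.49 ± 0.15 with mixed tocopherols (adjusted p = 0.0475) and -0.73 ± 0.15 with alpha-tocopherol (adjusted p = 0.00112).

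The firmness of these calls differed. In fits that left out 1 animal each, Ifnab, Tbk1 and the alpha-tocopherol change of Ifi27l2a passed in 20 of 20. Without the 2 old controls not labelled F1, Tbk1 was -0.52 (adjusted p = 0.0796), Trim25 -0.55 (0.0904), Irf5 -0.42 (0.178) and the mixed-tocopherol change of Ifi27l2a -0.47 (0.157), and none of these 4 passed. Trim25 passed in 14 of 20 and was lost without old control 3 or 4 (adjusted p = 0.0950 and 0.0669) or alpha-tocopherol animal 1, 2, 3 or 5 (0.0707, 0.0603, 0.0535 and 0.0728). Irf5 passed in 4 of 20, without alpha-tocopherol animal 3, 4 or 5 or young control 3, with an adjusted p of at most 0.178 over all settings. The mixed-tocopherol change of Ifi27l2a passed in 3 of 20, without mixed-tocopherol animal 1, alpha-tocopherol animal 3 or young control 3, with an adjusted p of at most 0.157. With the hybridization controls or 18S as a covariate, none of the 4 alpha-tocopherol calls passed; their adjusted p-values were then 0.0678 to 0.477. Their errors were larger and most differences of like size. These differences were 0.60 and 0.61 for Ifnab, -0.68 and -0.81 for Ifi27l2a, -0.44 and -0.83 for Trim25, and -0.62 and -0.36 for Tbk1. Both measures separated alpha-tocopherol from old control arrays, so supplement and array measures cannot be told apart here. Some myeloid and fibroblast markers fell in the same groups as Ifi27l2a, Trim25, Tbk1 and Irf5. With mixed tocopherols, 1 of 9 tested myeloid and 3 of 7 fibroblast markers fell, and with alpha-tocopherol 4 of 9 and 4 of 7. These shares stand beside 6.43% and 21.7% of all tested probe sets. The fibroblast marker Col1a2 rose, by 0.50 ± 0.11 with mixed tocopherols and 0.71 ± 0.11 with alpha-tocopherol (adjusted p = 0.0123 and 0.00018). Its other tested probe set differed by -0.47 and -0.21. The myeloid C1qb changed by -0.99 ± 0.22 with mixed tocopherols and -1.16 ± 0.22 with alpha-tocopherol (adjusted p = 0.00924 and 0.000694). The other tested C1qb probe set differed by -0.06 and 0.48. Of the same list, Fcgr1 (0.25 with mixed tocopherols and 0.42 with alpha-tocopherol) and Cd14 (0.12 and 0.13) had positive differences that did not pass. The fibroblast collagen gene Col3a1 changed by -1.54 ± 0.26 with mixed tocopherols and -1.39 ± 0.26 with alpha-tocopherol (adjusted p = 0.00148 and 0.000754). The part of these cell types was not tested.

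**Figure D4:**
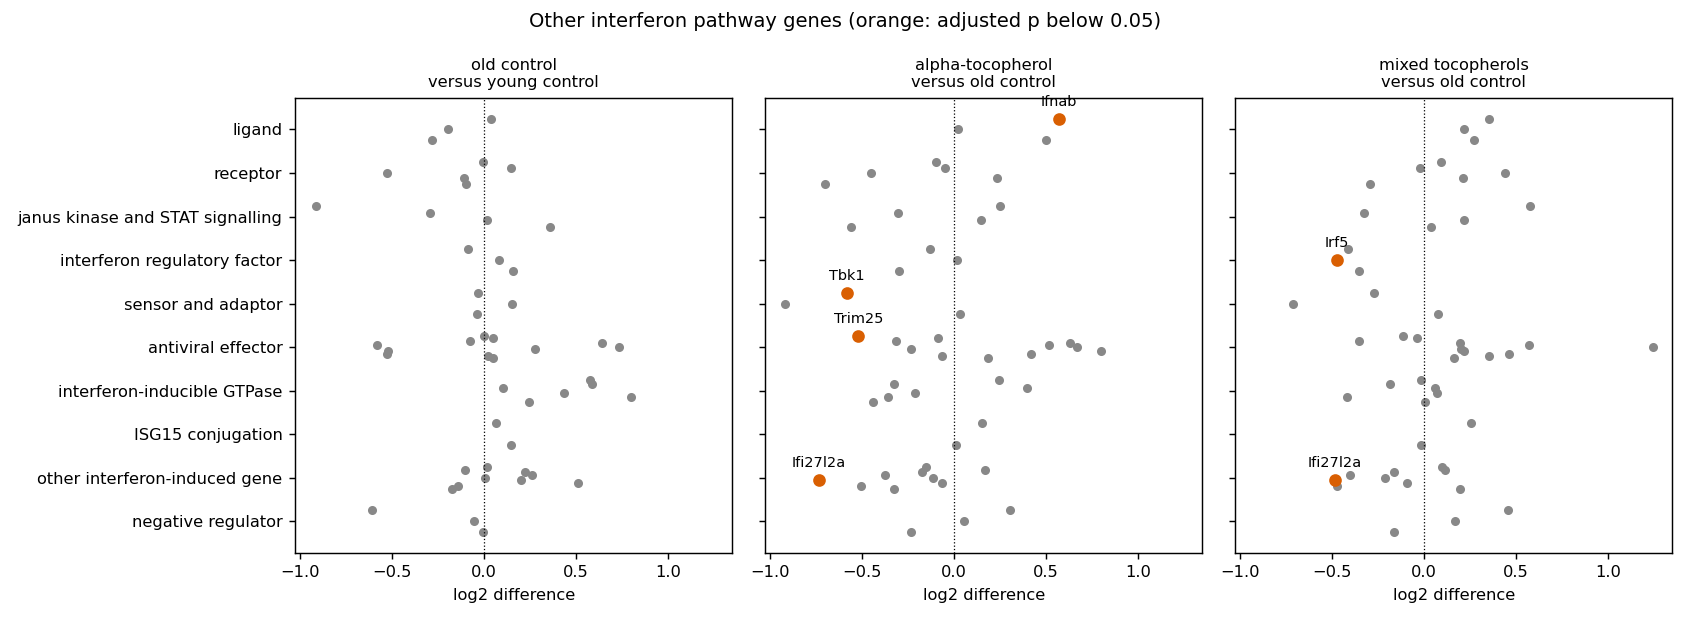
Each point is the log2 difference of 1 tested interferon pathway gene, in rows by role, for age, alpha-tocopherol and mixed tocopherols. Orange points passed the test: Ifnab at 0.57 is the only one that rose, and Tbk1, Trim25, Ifi27l2a and Irf5 fell.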

How the data were processed

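Hearts of 20 mice were measured on 1 array each. Per the labels' protocols, oligo-dT purified RNA was made into biotin-labelled complementary RNA. The authors deposited a linear intensity for 12488 probe sets, made with software not stated in the labels. The arrays share a trimmed mean (1501.0 to 1501.1 with 2% left out at each end), so the deposited scaling was kept. Probe set symbols came from the platform annotation, which gave 10833 of 12422 non-control probe sets 1 symbol alone. Values were taken as log2(intensity + 58).

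The 66 controls and the dimmest 40% (mean intensity under about 362) were left out. Group means were fitted over all 20 arrays with limma 3.58.1 in R 4.3.3 (a robust variance trend, with 16 residual degrees of freedom), with two-sided Benjamini-Hochberg adjusted p-values over 7453 probe sets and calls below 0.05. Where a listed gene had several probe sets, the brightest tested one stood for it. Correlations of deviations used 100000 within-group permutations. Named genes were all interferon-responsive probe sets, the pathway genes called in any comparison, and the 6 genes most like the average. Gbp3, Ifi27, Tyk2, the named markers of cell types and the other pathway genes named beside that ranking were chosen after their values were seen. Genes and lists were chosen with earlier results of these data known. Same-numbered animals did not deviate together (r from -0.0839 to 0.101), so no pairing was used. The fit was tested on simulated data. Alternatives were other pseudocounts, filters, scalings, weights, covariates, a replicate block and left-out animals. Each array is 1 animal, so p-values measure the spread between animals.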

Additional observations from a re-analysis of the deposited data

Results flagged for a closer look

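Usp18 in alpha-tocopherol animal 5 read 449.8, far above the 47.6 to 104 of the other 4 hearts of its group. On the log2(intensity + 58) scale its gap to the next heart was 0.727 of the group's range, beside a critical value of 0.71 for 5 samples. It was the 1 such value in 32 checks of a probe set in a group, and chance flags about 1 in 20.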

How the results depend on the processing

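Over 32 differences of an interferon-responsive probe set and 34 alternative settings, 999 of 1064 values kept their direction and side of the threshold, 43 changed sign, 20 lost and 2 gained a call; the cause was not tested. The count of these probe sets called with alpha-tocopherol was 0 instead of 1 with no filter, with the dimmest 20% left out, with no variance trend, with the replicate block, with either covariate, without old controls 1 and 4, and without young control 3 and old control 3, and 0 to 1 when 1 animal was left out. In the replicate block Irf1 had an adjusted p of 0.0627, and Trim25 (0.0514), Irf5 (0.0672) and the mixed-tocopherol change of Ifi27l2a (0.0749) also lost their calls. With age the count was 1 instead of 0 with array weights. The calls over all probe sets with alpha-tocopherol, 1619, were 148 with the hybridization control covariate and 161 with 18S.

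Some values changed sign. With the hybridization control covariate these were, for alpha-tocopherol over old controls, Ifit1 0.66, Ifit2 0.0165 and the first Irf7 probe set 0.24; for mixed tocopherols over old controls, Ifit1 0.29; and for mixed over alpha-tocopherol, Ifit1 -0.37, Ifit2 -0.14 and Isg15 -0.13. With 18S, the second Irf7 probe set was -0.11 with alpha-tocopherol and -0.13 with mixed tocopherols. With array weights, Ifit1 was 0.0281 for mixed tocopherols over old controls, Ifit3 -0.00557 for mixed over alpha-tocopherol and Irf1 -0.00682 for age. Quantile normalization gave Irf1 -0.0019 for age. Without young control 3 and old control 3, Ifit1 was 0.14 with mixed tocopherols and the first Irf7 probe set 0.0938 with alpha-tocopherol.

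Leaving out 1 animal gave these ranges where a sign changed. For mixed tocopherols over old controls they were -0.38 to 0.19 for Ifit1, -0.0226 to 0.305 for the first Irf7 probe set and -0.0686 to 0.193 for the second Irf7 probe set. For alpha-tocopherol over old controls they were -0.0646 to 0.359 for Ifit3 and -0.25 to 0.17 for the first Irf7 probe set. For mixed over alpha-tocopherol they were -0.0578 to 0.483 for Ifit2, -0.12 to 0.28 for Ifit3, -0.32 to 0.52 for Isg15 and -0.00478 to 0.42 for the first Irf7 probe set. For age, Irf1 ranged from -0.0772 to 0.118. Ifit1, Ifit2 and Usp18 lie near the low end of the intensities, where signal over background limits what can be resolved.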
